A study of Mus musculus with 28 samples.

Results

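The unfolded protein response and endoplasmic reticulum (ER) folding genes were followed in mouse B-cell lymphomas treated with Adriamycin (ADR). The set was fixed by name as 33 genes, of 18193 genes measured, and each gene was read from its brightest probe set that matches a single gene. It holds 14 chaperones and folding factors, 8 genes of ER-associated degradation, 7 genes of the ATF4-CHOP arm, 3 stress sensors and 1 subunit of the translocon. All 33 members were measured and tested, since no filter on low values was applied. The tested cultures were treated for 5 days in vitro with 0.05 µg/ml ADR (doxorubicin, a DNA-damaging cytostatic drug), and the labels mark them as induced to senesce. The reference cultures of the same lymphomas were left untreated. There were 14 lymphomas with 1 ADR and 1 untreated array each, 28 arrays in all. Both kinds of culture came from Emu-myc transgenic C57BL/6 mice, in which an immunoglobulin heavy-chain enhancer drives Myc in the B lineage. Both also carried Bcl2 from a puromycin-selected MSCV retrovirus, which protects the cells from apoptosis, so neither group had normal Myc or normal Bcl2. Every culture grew on NIH 3T3 mouse fibroblasts irradiated with 20 Gy, and the labels name no step that took the feeder cells away before RNA was extracted. Each value is a log2 expression level, so a change of 1 is a 2-fold change, and levels are compared within a probe set only. The labels name lymphomas and not mice, so p-values measure the spread between these 14 lymphomas.

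The ER folds secreted and membrane proteins with the help of chaperones, and B cells that secrete antibody load it heavily. When unfolded proteins gather, the sensors IRE1 (Ern1), PERK (Eif2ak3) and ATF6 signal to the nucleus. IRE1 splices the mRNA of the transcription factor XBP1 and ATF6 is cut to release a transcription factor, and together these raise chaperones and degradation genes. PERK phosphorylates the translation factor eIF2-alpha, which slows protein synthesis and lets ATF4 be made, and ATF4 in turn raises CHOP (Ddit3), Atf3 and others. ATF4 can also be reached through other eIF2-alpha kinases that sense amino acid lack, heme lack or double-stranded RNA.

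B-cell markers gave signal in both groups. The lowest level of Cd79a, a chain of the B-cell receptor, was 8.58 in ADR cultures and 9.96 in untreated cultures. Of 11 measured B-cell markers, 5 were lower in ADR cultures and none was higher. Their mean lay between 7.25 and 9.89 in ADR cultures and between 8.38 and 9.22 in untreated cultures. It was lower after ADR in 11 lymphomas and higher in 3, with changes from -1.34 in lymphoma 5560 to 0.67 in lymphoma 1570. The part of this decline in the results was not tested. The ADR cultures held more signal from other cell types. Of 24 fibroblast markers, 23 were higher after ADR, with a median change of 1.87, and their mean change per lymphoma ran from -0.10 in lymphoma 1467 to 4.35 in lymphoma 403. The fibroblast mean over the 24 genes lay between 5.00 and 9.12 in ADR cultures and between 4.63 and 5.50 in untreated cultures. Of 14 macrophage markers, 10 were higher, with a median change of 1.59. The macrophage mean was between 6.14 and 9.61 in ADR cultures, against 5.16 to 8.60 in untreated cultures, and was higher after ADR in all 14 lymphomas. Of 11 plasma-cell markers 2 were higher and 2 lower, and of 8 T-cell markers 0 passed the test in either direction. In these bulk cultures fewer cells of a type and less RNA per cell cannot be told apart. The ADR array of lymphoma 1570 stood apart in RNA quality, with a 3' minus 5' signal of 0.92 for both actin and Gapdh, and leaving that lymphoma out left the count of changed members at 11.

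Of the 33 members, 11 were higher in ADR cultures and 0 were lower at an adjusted p under 0.05 (limma with lymphoma as a block, adjusted over all 18193 genes). Over all genes, 15.3% were higher and 13.4% were lower by the same test. Many of these genes have low levels. In a fit of the 8814 genes with a mean level of at least 6, which include all 33 members, the shares were larger. There 2070 genes (23.5%) were higher and 2165 were lower. At an unadjusted p under 0.05, 14 members were higher and 1, Sec61b, was lower. The 11 were the chaperone genes Dnajb9, Calr and Pdia3, the degradation genes Derl2, Edem1 and Derl1, the ATF4-CHOP genes Atf3, Ddit3, Ppp1r15a and Atf4, and the sensor Ern1. The median change was 0.16 over the members, against -0.00 over all genes. By role, 3 of 14 chaperones, 3 of 8 degradation genes, 4 of 7 ATF4-CHOP genes and 1 of 3 sensors were higher, with median changes of 0.14, 0.22, 0.47 and 0.16. Of the 33, only Atf3 exceeded 2-fold on average. With no replicate block 7 members were higher and 0 lower, against 10.6% and 9.47% of all genes, and Atf4, Edem1, Ern1 and Ppp1r15a were no longer past the threshold. With the fibroblast mean change as a covariate 2 members stayed past the threshold as higher (5.78% of all genes did), and with the macrophage mean change 1 did (0.445%). Dnajb9, Derl2 and Atf3 were higher in 14 of 14 lymphomas, a pattern held by 2.87% of all genes. No member was lower in 14 of 14 (2.59% of all genes were). No member had ADR levels all above or all below its untreated levels (over all genes, 0.0605% were wholly above and 0.192% wholly below).

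**Figure D1:**
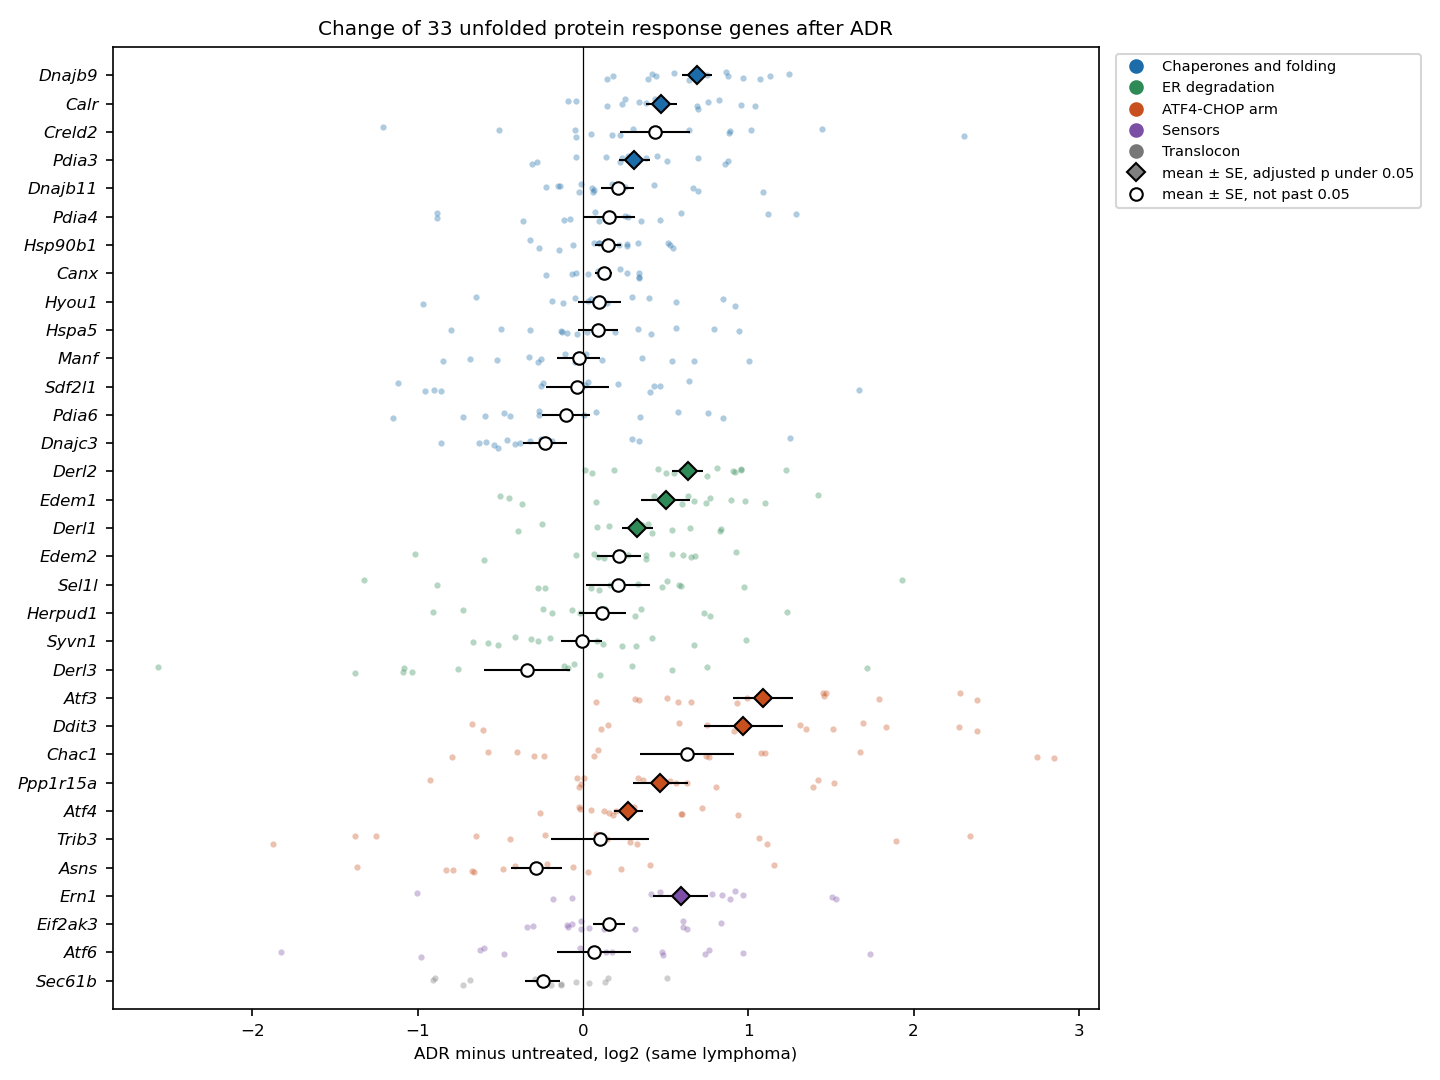
Change of each of the 33 members, ADR minus untreated within a lymphoma (log2, horizontal axis). Small points are the 14 lymphomas, large symbols are the mean ± SE of the fit, and filled diamonds mark the 11 genes with an adjusted p under 0.05. All 11 filled symbols lie to the right of 0, and Atf3 at 1.09 is the farthest.

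Among the chaperones Dnajb9 changed the most. It encodes ERdj4, a J-domain co-chaperone that works with the ER Hsp70 protein BiP. Its level was 8.47 at the lowest, 9.22 at the median and 10.28 at the highest in ADR cultures, against 7.88, 8.41 and 9.25 in untreated cultures. The ranges overlapped, but every lymphoma had more Dnajb9 in its ADR culture than in its untreated culture, by 0.15 to 1.25. The mean change was 0.69 ± 0.09 (SE, n = 14), or 1.62-fold (adjusted p = 4.22e-05, limma). Calr encodes calreticulin, a lectin chaperone that holds newly made glycoproteins. Calr stood at 11.80, 12.03 and 12.53 (lowest, median, highest) in ADR cultures and at 10.88, 11.67 and 12.13 in untreated cultures. It was higher in 12 of 14 lymphomas by a mean of 0.47 ± 0.09 (adjusted p = 0.00115), and both other Calr probe sets were also higher, by 0.49 and 0.47. Pdia3 encodes ERp57, the disulfide isomerase that partners calreticulin and calnexin. ADR cultures had Pdia3 levels of 11.52, 11.84 and 12.11, and untreated cultures 10.83, 11.60 and 12.09. The change of 0.31 ± 0.09 was positive in 11 of 14 lymphomas (adjusted p = 0.0203).

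The other 11 chaperone genes did not pass the test, with changes between -0.23 and 0.44 and adjusted p from 0.0865 to 0.926. They include Hspa5, which encodes BiP, the chaperone that also holds the stress sensors inactive. Hspa5 averaged 12.27 ± 0.36 in ADR cultures and 12.18 ± 0.34 in untreated cultures (SD, n = 14 each), a change of 0.09 ± 0.12 (SE) that was positive in 7 lymphomas and negative in 7. The ER Hsp90 gene Hsp90b1 changed by 0.15 and the lectin chaperone Canx by 0.13. Among the disulfide isomerases Pdia4 changed by 0.16 and Pdia6 by -0.10. The BiP co-chaperone genes Dnajb11 and Dnajc3 changed by 0.21 and -0.23, and the ERdj3 partner Sdf2l1 by -0.03. Hyou1, whose product exchanges the nucleotide on BiP, changed by 0.10. The ER-stress-induced secretory-pathway genes Creld2 and Manf changed by 0.44 and -0.03. A small mean change in this group did not mean little change in each lymphoma. Creld2 moved by -1.21 in lymphoma 3769 and by 2.30 in lymphoma 2949, and the SD of the change over the 14 lymphomas ran from 0.17 for Canx to 0.86 for Creld2. Probe sets of Dnajc3 disagreed: of the 4 others, 2 were lower (by 0.34 and 0.30 on the log2 scale) and 2 were not past the threshold, at 0.18 and 0.10.

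The ER stress element (ERSE) is the promoter motif through which ATF6, with the factor NF-Y, raises chaperone genes. Its letters, CCAAT and CCACG with 9 bases of any kind between them, were searched on both strands of RefSeq promoters (GRCm38.p6, 250 bases before to 50 after each start), which were found for 29 of the 33 members. The 4 without an entry were Manf, Hyou1, Derl1 and Atf6. The element was present in 9 of the 29 members and in 37 of 27025 genes (0.137%). It was found in 7 of 12 chaperone genes, 2 of 7 degradation genes and 0 of 7 ATF4-CHOP genes. The excerpts below are shown because most of the chaperone promoters hold the element. They run in the direction of the motif, with its fixed letters in capitals.
Hspa5, chr2:34772012-34772056, plus strand: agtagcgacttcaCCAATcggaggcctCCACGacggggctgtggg
Hsp90b1, chr10:86705625-86705669, minus strand: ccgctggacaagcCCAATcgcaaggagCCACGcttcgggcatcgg
Hsp90b1, chr10:86705520-86705564, plus strand: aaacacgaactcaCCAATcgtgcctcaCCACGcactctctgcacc
Calr, chr8:84847062-84847106, plus strand: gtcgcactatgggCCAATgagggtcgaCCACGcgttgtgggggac
Canx, chr11:50325787-50325831, minus strand: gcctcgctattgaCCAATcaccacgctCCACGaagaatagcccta
Pdia6, chr12:17266478-17266522, plus strand: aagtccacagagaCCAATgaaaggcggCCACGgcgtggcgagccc
Dnajc3, chr14:118937814-118937858, plus strand: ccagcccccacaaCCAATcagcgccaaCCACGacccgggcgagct
Creld2, chr15:88819507-88819551, minus strand: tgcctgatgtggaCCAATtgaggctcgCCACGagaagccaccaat
Syvn1, chr19:6046519-6046563, plus strand: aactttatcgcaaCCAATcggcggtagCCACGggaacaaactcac
Derl3, chr10:75893229-75893273, minus strand: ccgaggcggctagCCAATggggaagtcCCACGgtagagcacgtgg
Of these 9 genes, 1 (Calr) was higher in ADR cultures, against 15.3% of all genes, and their median change was 0.09. Of the 20 members with a promoter entry but no ERSE match, 9 were higher, with a median change of 0.25. The unfolded protein response element core TGACGTG was found in 1 member, Hspa5 (2.22% of all genes), at 157 bases upstream of the start, where the ERSE match began 65 bases upstream.
Hspa5, chr2:34771920-34771952, plus strand: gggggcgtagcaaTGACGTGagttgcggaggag
None of the motif matches in the members overlapped another. A match in these letters is a description and not a measured binding site.

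ER-associated degradation carries misfolded proteins back to the cytosol for the proteasome. Derl2, which encodes a derlin, a membrane protein of the exit channel, was the most changed of the 8 members. Its levels were 8.66, 9.25 and 9.62 (lowest, median, highest) in ADR cultures and 7.83, 8.61 and 8.90 in untreated cultures. All 14 lymphomas had the higher level in the ADR culture, by 0.02 in lymphoma 1467 up to 1.23 in lymphoma 2949. The mean change was 0.63 ± 0.09 (adjusted p = 0.000119, limma), and another, dimmer Derl2 probe set was also higher, by 0.20. Edem1 encodes a mannosidase-like lectin that picks out misfolded glycoproteins. It stood at 8.72, 9.44 and 10.57 in ADR cultures and at 7.92, 9.14 and 10.38 in untreated cultures. Edem1 was higher in 11 of 14 lymphomas, by a mean of 0.50 ± 0.15 (adjusted p = 0.0179), and the other Edem1 probe set was higher by 0.56. Derl1, another derlin gene, had levels of 10.13, 10.48 and 11.32 in ADR cultures and 9.87, 10.15 and 10.82 in untreated cultures. It was higher in 12 of 14 lymphomas, by 0.33 ± 0.09 (adjusted p = 0.0123), and 2 of its 3 other probe sets also passed the test.

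The remaining 5 degradation genes did not pass the test. Edem2, an EDEM1 relative, changed by 0.22. Sel1l and Syvn1, which encode the adaptor and the ubiquitin ligase (HRD1) of the main degradation complex, changed by 0.21 and -0.01. Herpud1, which encodes a membrane protein of that complex, changed by 0.12. Derl3 had a mean change of -0.34 with the widest spread in this role, an SD of 1.07 over the lymphomas. It changed by -2.57 in lymphoma 3769, where the ADR culture was at 6.39 and the untreated culture at 8.96. In lymphoma 2581 the change was 1.72, with 7.61 in the ADR culture and 5.89 in the untreated culture. Of the 3 derlin genes, 2 thus rose and Derl3 did not pass the test. The variant element ERSE-II, ATTGG and CCACG with 1 base of any kind between them, was present in Herpud1 and in the chaperone gene Dnajb11 (12 of 27025 genes, or 0.0444%). The Herpud1 promoter also held the C/EBP-ATF response element (CARE), TGATGNAA, through which ATF4 acts, and so it was the only member with matches from both the chaperone and the ATF4 type of element.
Herpud1 ERSE-II, chr8:94386364-94386400, plus strand: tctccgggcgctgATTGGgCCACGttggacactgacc
Herpud1 CARE, chr8:94386304-94386337, minus strand: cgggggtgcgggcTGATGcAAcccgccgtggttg
Dnajb11 ERSE-II, chr16:22857839-22857875, plus strand: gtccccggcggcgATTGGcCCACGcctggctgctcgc

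The ATF4-CHOP arm held the largest changes. Atf3 encodes a stress-induced transcription factor. ADR cultures had Atf3 levels of 7.84, 10.23 and 10.92 (lowest, median, highest), and untreated cultures 6.75, 8.74 and 10.40. It was higher in 14 of 14 lymphomas, by 0.08 in lymphoma 403 up to 2.38 in lymphoma 2581. The mean change was 1.09 ± 0.18, or 2.13-fold (adjusted p = 0.000298, limma). With the macrophage mean change as a covariate the Atf3 value was 0.04. That value is fitted at no macrophage change, below the lowest macrophage change of any lymphoma (0.27), and so lies outside the data. Ddit3 encodes CHOP, the transcription factor tied to cell death under lasting ER stress. Its levels in ADR cultures were 7.38, 8.62 and 10.01, against 6.48, 7.71 and 10.61 in untreated cultures. The untreated maximum came from lymphoma 2949, which was well above the next untreated culture at 8.49. Ddit3 was higher in 12 of 14 lymphomas, by a mean of 0.97 ± 0.24 (adjusted p = 0.00563), and had a negative change in 1467 (-0.67) and 2949 (-0.61). With the fibroblast mean change as a covariate the Ddit3 value was -0.03. A dimmer Ddit3 probe set gave 0.40 ± 0.24 and did not pass the test.

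Ppp1r15a encodes GADD34, the phosphatase subunit that reverses the phosphorylation of eIF2-alpha. It stood at 7.85, 8.39 and 9.67 in ADR cultures and at 7.42, 7.91 and 9.42 in untreated cultures. The ADR level was higher in 10 of 14 lymphomas, by a mean of 0.47 ± 0.17 (adjusted p = 0.0452, limma), so this call had the highest adjusted p of the 11. It was lost when any one of 9 lymphomas (2581, 3594, 3769, 403, 5043, 5560, 5766, 7050 or 9584) was left out, while the change itself stayed between 0.39 and 0.58 over all 14 such fits. Atf4 had levels of 10.29, 10.81 and 11.54 in ADR cultures and 10.10, 10.62 and 11.34 in untreated cultures. Its mean change over the 14 lymphomas was 0.28 ± 0.09 (adjusted p = 0.0244), with 11 positive and 3 negative, and the call was lost without lymphoma 2581 or without lymphoma 403. The 2 dimmer Atf4 probe sets changed by 0.28 and -0.005, and neither passed the test. ATF4 protein is set mainly by translation, which arrays do not measure. The mRNA levels of the other 3 members did not pass the test. They are Chac1, whose product breaks down glutathione, Trib3, which encodes a pseudokinase, and Asns, asparagine synthetase.

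Chac1 averaged 0.63 ± 0.28 higher (adjusted p = 0.115). This mean was carried by a few lymphomas: Chac1 was at 9.21 in the ADR culture and 6.36 in the untreated culture of lymphoma 5560, and at 9.01 and 6.26 in the ADR and untreated cultures of lymphoma 403. Elsewhere the change lay between -0.79 and 1.67. Trib3 changed by 0.10 ± 0.30 with an SD of 1.21 over the lymphomas, the largest of any member, from -1.87 in 1467 to 2.34 in 5766. Asns changed by -0.28 ± 0.15 and was lower in 10 of 14 lymphomas (adjusted p = 0.198). It passed the test in the negative direction when lymphoma 403, in which it was higher by 1.15, was left out (-0.39). CARE was found in 4 of the 7 ATF4-CHOP promoters, in 5 of 29 members and in 4.51% of all genes. These 4 excerpts are shown because Atf3 rose, while the 3 other genes that carry the same letters did not pass the test. The Trib3 match began at base 15, downstream of the start.
Atf3, chr1:191183423-191183456, plus strand: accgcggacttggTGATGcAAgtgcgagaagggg
Trib3, chr2:152344026-152344059, plus strand: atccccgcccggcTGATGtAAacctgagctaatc
Chac1, chr2:119351036-119351069, minus strand: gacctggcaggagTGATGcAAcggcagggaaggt
Asns, chr6:7693212-7693245, minus strand: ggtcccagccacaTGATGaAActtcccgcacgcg

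Of the 3 sensors Ern1, encoding IRE1-alpha, was higher. Its levels were 6.54, 7.99 and 8.22 in ADR cultures and 6.00, 7.15 and 8.35 in untreated cultures. The ADR level was higher in 11 of 14 lymphomas, by a mean of 0.59 ± 0.16 (adjusted p = 0.0127, limma). The call rests on the brightest probe set, since the 4 dimmer Ern1 probe sets changed by -0.10 to 0.06 and none passed the test. Eif2ak3, encoding PERK, was at 8.01, 9.24 and 9.89 in ADR cultures and at 8.02, 9.04 and 9.66 in untreated cultures, a change of 0.16 ± 0.10 that was positive in 7 lymphomas (adjusted p = 0.250). Atf6 changed by 0.07 ± 0.22, from -1.82 in lymphoma 5560 to 1.74 in lymphoma 1467. Sec61b, which encodes the beta subunit of the channel that carries new proteins into the ER, had levels of 10.70, 11.52 and 11.87 in ADR cultures and 11.36, 11.63 and 12.04 in untreated cultures. Its change of -0.24 ± 0.11 was negative in 10 of 14 lymphomas and did not pass the test (adjusted p = 0.106), but it did when lymphoma 2949 was left out (-0.30).

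**Figure D2:**
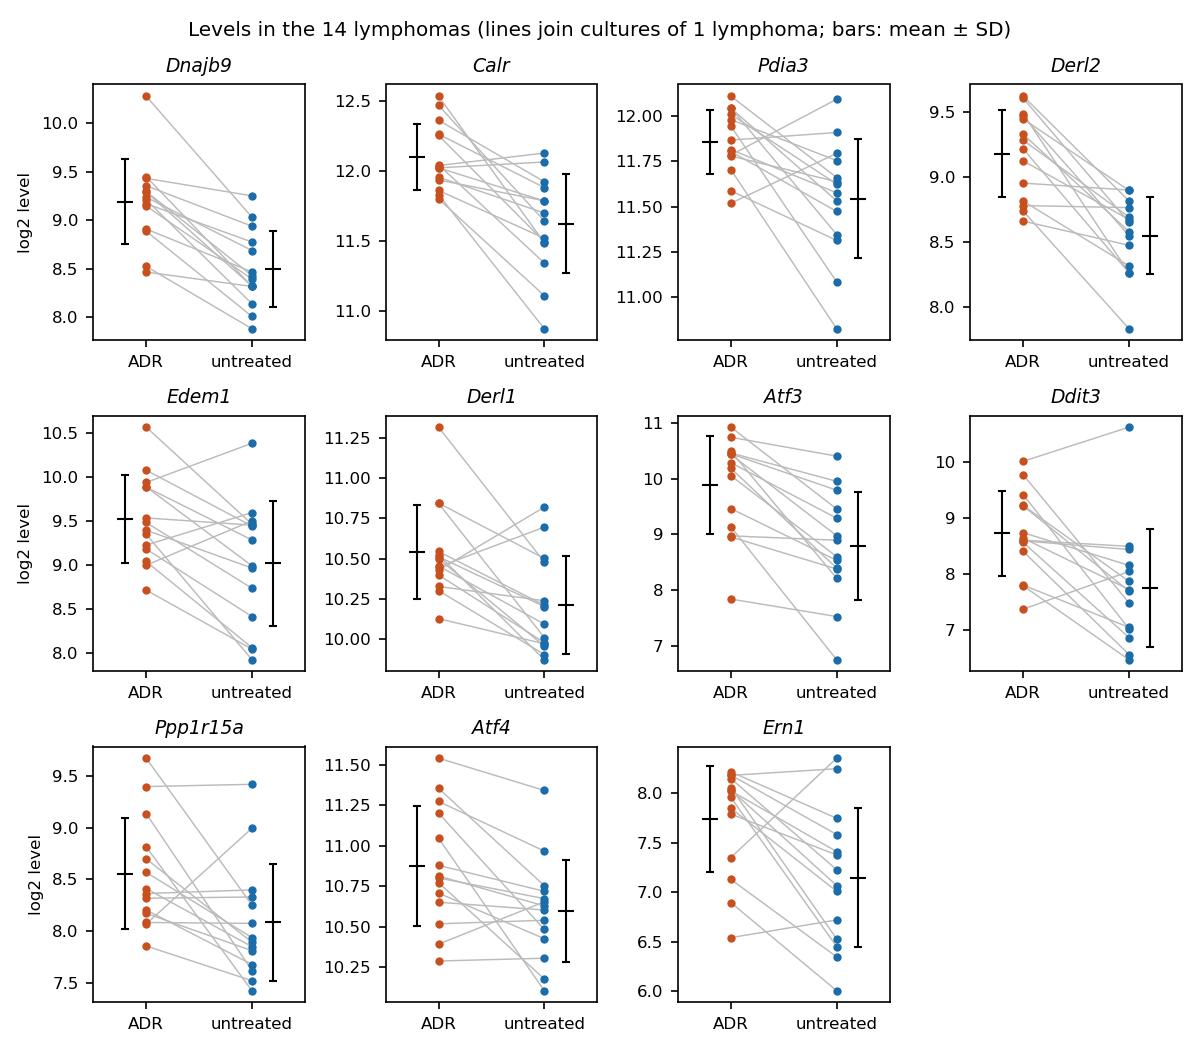
Log2 levels of the 11 members with an adjusted p under 0.05, in ADR cultures (left, orange) and untreated cultures (right, blue) of the 14 lymphomas. Lines join the 2 cultures of a lymphoma and bars are the mean ± SD. Every line falls from left to right for Dnajb9, Derl2 and Atf3, while the ranges of ADR and untreated cultures overlap in every panel.

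Chaperone and degradation genes had similar mean changes within a lymphoma, and the ATF4-CHOP genes often differed from both. The mean change of the 14 chaperone genes was positive in 10 lymphomas, from -0.49 in 9584 and -0.48 in 3769 to 0.67 in 5766 and 1.05 in 2949. The mean change of the 7 ATF4-CHOP genes was positive in 12 lymphomas, from -0.69 in 1467 to 1.16 in 2581 and 1.5 in 403. Degradation genes had a mean change from -0.42 in 5560 to 1.00 in 2949. The ATF4-CHOP mean exceeded the chaperone mean in 11 of 14 lymphomas, with a median difference of 0.31 and a range of -0.73 to 1.42. The degradation mean exceeded the chaperone mean in 8 of 14, with a median difference of 0.02 and a range of -0.38 to 0.37. These differences are a description and were not tested.

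Single lymphomas show how far apart the roles could be. In lymphoma 403 the ATF4-CHOP mean change was 1.5 and the chaperone mean change 0.08, led by Chac1 (2.75), and Sdf2l1 had the most negative change (-0.86). Lymphoma 2949 had the opposite balance. Its chaperone mean was 1.05 and its ATF4-CHOP mean 0.32, with Creld2 (2.30), Sel1l (1.93) and Sdf2l1 (1.67) at the top and Ddit3 (-0.61) at the bottom. In lymphoma 9584 only 9 of the 33 members were higher in the ADR culture, Pdia6 had a change of -1.15, and Ddit3 was still higher by 1.51. Lymphomas 2581 and 6054 had 31 of 33 members higher. The fibroblast mean in these lymphomas changed by 4.35 in 403, 0.53 in 2949, 0.86 in 9584, 2.55 in 2581 and 1.39 in 6054.

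**Figure D3:**
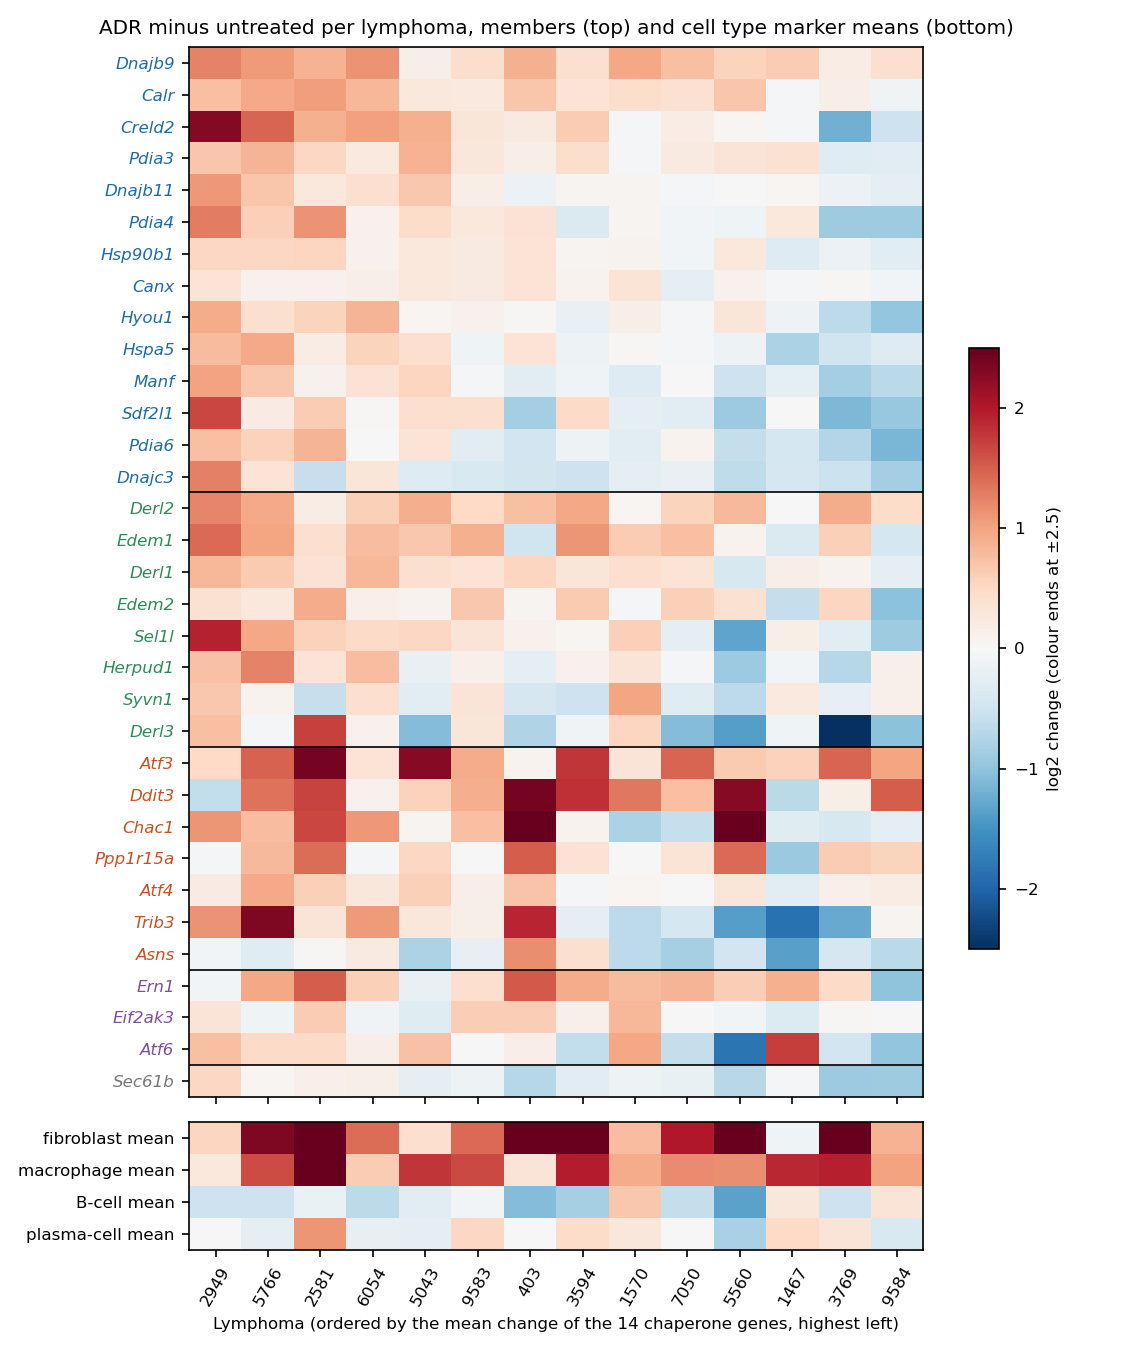
Change of each member (rows, grouped by role) in each of the 14 lymphomas (columns), ADR minus untreated on the log2 scale, with the mean changes of fibroblast, macrophage, B-cell and plasma-cell markers below. Columns run from the highest to the lowest chaperone mean, 1.05 in lymphoma 2949 to -0.49 in lymphoma 9584. Among the ATF4-CHOP rows, Ddit3 and Atf3 do not follow that order, while Trib3 is mostly positive on the left and mostly negative on the right.

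Most of the chaperone members moved together with Hspa5 across lymphomas. Of the other 32 members, 16 had a change that correlated with the Hspa5 change at a Pearson r of at least 0.6, against 1.51% of the other 18192 genes, and 0 had an r of -0.6 or below, against 1.09%. Without lymphomas 2949 and 5766, the farthest from the median Hspa5 change, 8 of these 16 were still at 0.6 or more, against 1.25% of all genes. The other 8 (Pdia3, Dnajb9, Herpud1, Sel1l, Pdia4, Dnajc3, Pdia6 and Dnajb11) were then between 0.39 and 0.59, so their values rest in part on those lymphomas. The value 0.6 was chosen after the correlations were seen, and both changes of a lymphoma come from the same 2 arrays. These 16 were 11 of 13 chaperones (all but Canx at 0.52 and Sdf2l1 at 0.51), 3 of 8 degradation genes (Herpud1, Sel1l and Derl1) and 2 of 7 ATF4-CHOP genes (Atf4 and Trib3). The median r was 0.71 over the chaperones, 0.51 over the degradation genes and 0.37 over the ATF4-CHOP genes, against 0.02 over all genes. This order of the roles did not extend to the genes outside the members that are listed further below. Of 17 other ER folding genes 1 reached 0.6, with a median r of 0.36. Of 24 other ATF4 targets 7 did, with a median r of 0.45. Among all genes ranked by this r, Trib3 was number 2, Creld2 number 6, Manf number 7 and Hsp90b1 number 9. Genes outside the members ranked as high: number 1 was Tyms-ps (r = 0.93), number 4 Cldn10 and number 5 Adck5.

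Each relation was tested by 100000 permutations and adjusted over the 32 relations of this family. Trib3 had r = 0.87 and Spearman rho = 0.86 (permutation p = 6.00e-05 and 0.000220, adjusted 0.00192 and 0.00235). Without lymphomas 2949 and 5766 its r was 0.81. Creld2 had r = 0.83 and rho = 0.85 (permutation p = 0.000380 and 0.000200, adjusted 0.00405 and 0.00235), with r = 0.72 without those lymphomas. Manf, whose mean change was near 0, had r = 0.82 and rho = 0.81 (permutation p = 0.000350 and 0.000820, adjusted 0.00405 and 0.00656), and r = 0.69 without them. These 3 genes did not pass the test for a mean change, yet their changes were ordered much like that of Hspa5 across lymphomas. Within the 11 lymphomas whose arrays had been used before, the r values of Trib3, Creld2 and Manf were 0.91, 0.81 and 0.81. By contrast Ddit3 had r = 0.06 and rho = -0.03 (permutation p = 0.844 and 0.929, adjusted 0.871 and 0.929). Atf3 had r = 0.02 and rho = -0.03 (permutation p = 0.942 and 0.917, adjusted 0.942 and 0.929). In the untreated cultures alone the relation to the Hspa5 level was looser, with a median r of 0.35 over 32 members, and Manf had the highest r of the 32, at r = 0.79 and rho = 0.82 (permutation p = 0.000740 and 0.000620, adjusted 0.0237 and 0.00992, r = 0.69 without 1467 and 5766).

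Some of the ATF4-CHOP genes followed the fibroblast signal. Of the 33 members 4 had a change that correlated with the fibroblast marker mean change at r of at least 0.6, a share near the 10.5% of all genes and so no result about the members as a set. The 4 were Ppp1r15a, Ddit3, Chac1 and Asns, all of the ATF4-CHOP arm, while Atf4 had r = 0.42, Trib3 r = 0.18 and Atf3 r = -0.01. After adjustment Ppp1r15a and Ddit3 were past the threshold. The median r was 0.63 over the 7 ATF4-CHOP genes and -0.12 over the 14 chaperones. Ppp1r15a had r = 0.82 and rho = 0.75 (permutation p = 0.000220 and 0.00252, adjusted over 33 relations 0.00726 and 0.0416), with r = 0.69 when 403 and 5560 were left out and r = 0.91 in the 11 lymphomas used before. Ddit3 had r = 0.75 and rho = 0.78 (permutation p = 0.00215 and 0.00157, adjusted 0.0355 and 0.0416), with r = 0.57 without 403 and 5560 and 0.83 within the 11. For Chac1 the value of 0.68 was 0.22 without those 2 lymphomas. The changes of Syvn1 and Atf6 ran the other way, at r of -0.69 and -0.60, and 11.2% of all genes had an r of -0.6 or below. With the macrophage marker mean, 1 member reached 0.6 and 0 reached -0.6 (2.29% and 1.24% of all genes did). It was Atf3, at r = 0.80 and rho = 0.78 (permutation p = 0.000450 and 0.00164, adjusted 0.0148 and 0.0541), and r was 0.71 without 2581 and 2949 and 0.85 within the 11.

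**Figure D4:**
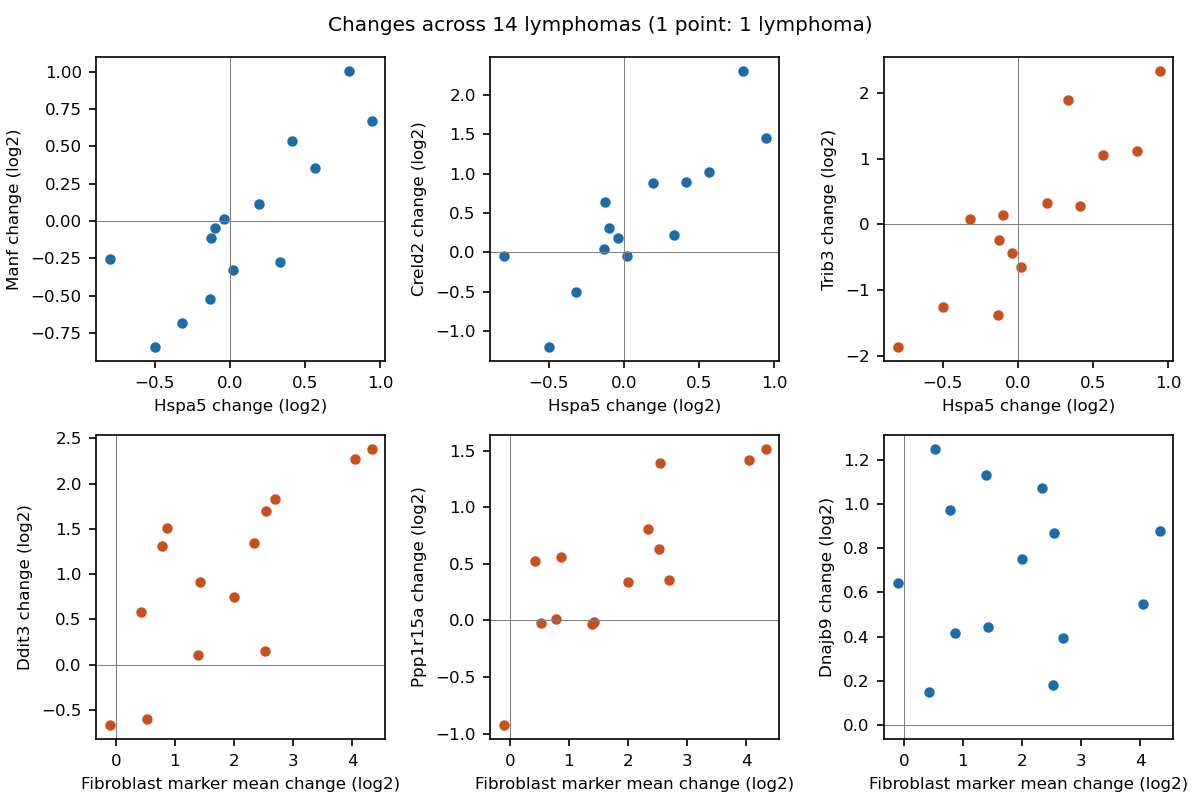
Changes of single members across the 14 lymphomas (ADR minus untreated, log2, 1 point per lymphoma). The top row sets Manf, Creld2 and Trib3 against Hspa5 (r of 0.82, 0.83 and 0.87), and the bottom row sets Ddit3, Ppp1r15a and Dnajb9 against the mean change of 24 fibroblast markers (r of 0.75, 0.82 and -0.02).

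The fits that take the marker changes into account left few calls. With the fibroblast mean change as a covariate, the fitted value at no fibroblast change was past the threshold for 2 of the 33 members in the positive direction, Dnajb9 (0.70 ± 0.16, adjusted p = 0.0118, limma) and Atf3 (1.09 ± 0.32, adjusted p = 0.0389), against 5.78% of all genes. In the negative direction it was past the threshold for 1, Asns (-0.83 ± 0.21, adjusted p = 0.0218), against 5.07% of all genes. For Ddit3 this value was -0.03 ± 0.28 and for Ppp1r15a -0.30 ± 0.17, neither past the threshold. Only lymphoma 1467 had a fibroblast change below 0, so these values lie at the edge of the data. With the macrophage mean change as a covariate, chosen after the data were seen, 1 member was past the threshold, against 0.445% of all genes. It was Dnajb9, at 0.96 ± 0.18 (adjusted p = 0.0345, limma), and Atf3 was at 0.04 ± 0.25. The lowest macrophage change was 0.27, so these values at no macrophage change lie outside the data. Dnajb9 had r = -0.02 with the fibroblast change and was the only member past the threshold with all 14 lymphomas and in each of the 26 distinct alternatives. Calr, Pdia3, Derl1, Derl2 and Edem1 kept positive values of 0.25, 0.37, 0.43, 0.48 and 0.65 at no fibroblast change without passing the test. Without lymphomas 403 and 5560, which had the largest fibroblast changes, 9 members were higher (13.5% of all genes) and 1, Asns, was lower (11.2%).

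Other genes of the same pathways were counted from lists that do not overlap the members. For comparison, 15.3% of all genes were higher and 13.4% lower. In the fit of the 8814 genes with a mean level of at least 6, 23.5% were higher and 2165 genes were lower. Among 16 other degradation genes 8 (50%) were higher and 0 lower, with a median change of 0.23, close to the 0.22 of the degradation members. The most changed were Herpud2 (0.60 ± 0.10), a relative of Herpud1, Selenos (0.59 ± 0.15), a selenoprotein of the exit machinery, and Erlec1 (0.54 ± 0.12), a lectin of that machinery. Among 17 other ER folding genes 2 were higher and 1 lower (11.8% and 5.88%), with a median of -0.00. Neither share was above that of all genes. The called genes were Dnajc10 (0.32), a disulfide reductase, Selenof (0.23), a selenoprotein that binds a folding enzyme, and Prdx4 (-0.31), an ER peroxiredoxin. Among 19 other genes of the translocon, signal peptidase and glycosylation 2 were higher and 2 lower (10.5% each), near the shares of all genes. The called genes include Spcs3 (-0.39), a signal peptidase subunit, Sec62 (0.27), a translocon factor, and Rpn2 (-0.20), a subunit of the oligosaccharyl transferase. From each of the 5 lists, the 3 genes with the largest changes among those past the threshold were followed, 15 in all. Of these 15, 5 (Cebpb, Prdx4, Selenos, Psat1 and Sesn2) stayed past the threshold with the fibroblast covariate, and Sec62 changed sign to -0.13. With the macrophage covariate 0 of the 15 stayed past the threshold. The calls of Sec62 and Rpn2 were lost in 9 and 12 of the 14 fits that left out 1 lymphoma.

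Among 16 other regulators 5 were higher and 2 lower (31.25% and 12.5%), against 15.3% and 13.4% of all genes. Nupr1, a stress-induced chromatin protein, rose by 1.46 ± 0.34, Cebpb, a partner of CHOP and ATF4, by 1.37 ± 0.13 and Atf5, an ATF4 relative, by 0.92 ± 0.23. Cebpb was higher in 14 of 14 lymphomas and stayed at 1.22 ± 0.23 at no fibroblast change (adjusted p = 0.00454, limma), while Nupr1 was at 0.23 ± 0.46 there and Atf5 at 0.85 ± 0.41 (adjusted p = 0.222). With the macrophage covariate Cebpb was no longer past the threshold (adjusted p = 0.0898). Xbp1, the target of IRE1, rose by 0.54 ± 0.14 (adjusted p = 0.00912). It lost the call with the fibroblast covariate (0.63, adjusted p = 0.130, limma). With the macrophage covariate Xbp1 was at 0.05 (adjusted p = 0.957, limma), a value fitted outside the range of the data. Xbp1 was named after its value was seen, its splicing was not analysed here, and it also stands on the plasma-cell list.

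The wider ATF4 targets did not follow Atf3 and Ddit3. Among 24 other genes listed as ATF4 targets, 2 were higher and 8 lower (8.33% and 33.3%), against 15.3% and 13.4% of all genes. The share of lower genes was larger, at 2165 of 8814, in the fit of genes with a mean level of at least 6. Their median change was -0.25, against 0.47 over the 7 ATF4-CHOP members. Many act in amino acid synthesis, transport or tRNA charging, but the list also holds genes of other kinds, such as Sesn2, Ddit4 and Eif4ebp1. Psat1, an enzyme of serine synthesis, averaged 9.88 ± 0.46 in ADR cultures and 10.89 ± 0.25 in untreated cultures (SD, n = 14 each). It was lower in 14 of 14 lymphomas, by a mean change of -1.01 ± 0.10 (adjusted p = 5.74e-06, limma), and its value at no fibroblast change was -1.08 ± 0.18. Shmt2, which makes glycine from serine in mitochondria, changed by -0.90 ± 0.15 and was lower in 13 lymphomas. Sesn2, a sestrin that responds to both ATF4 and p53, was higher by 0.68 ± 0.13 on average and in 13 of 14 lymphomas. With the fibroblast covariate Shmt2 was at -0.41 (adjusted p = 0.274, limma). With the macrophage covariate Sesn2 was at 0.03 (adjusted p = 0.967) and Psat1 at -0.69 (adjusted p = 0.111), values fitted outside the range of the data. Asns, the member nearest in function to the amino acid genes of this list, had a negative mean change as well (-0.28), without passing the test.

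**Figure D5:**
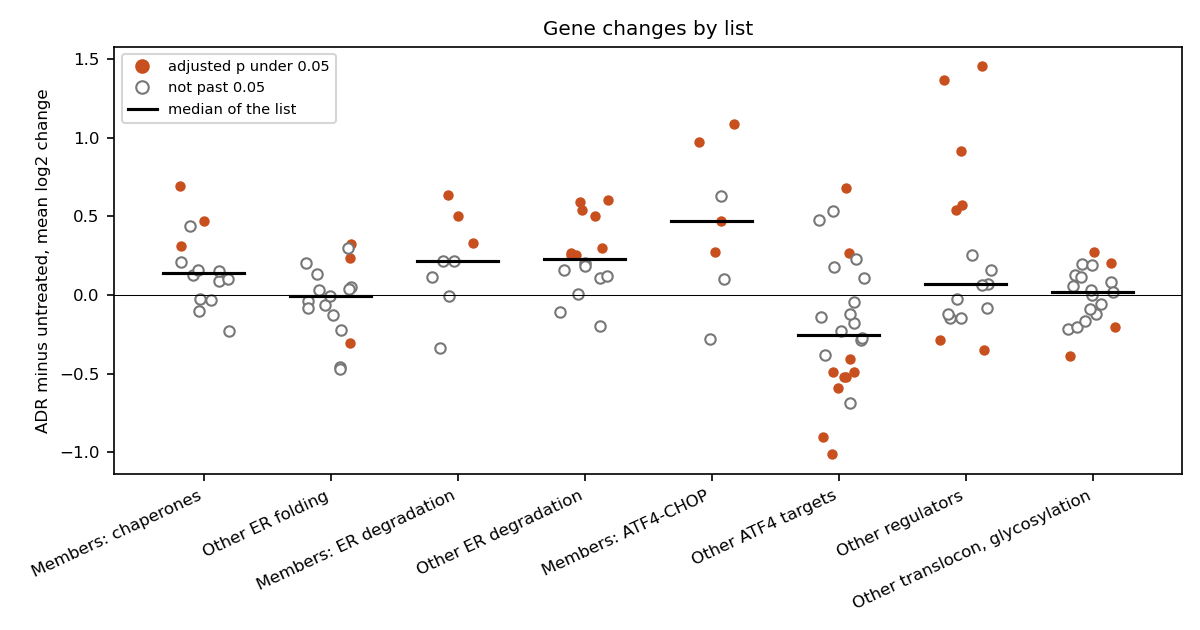
Mean log2 change (ADR minus untreated) of each measured gene, by list, with members and other genes of the same pathway side by side. Filled points have an adjusted p under 0.05 and bars are list medians, which run from -0.25 for the other ATF4 targets to 0.47 for the ATF4-CHOP members.

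The labels describe the arrays of 11 lymphomas as a new analysis of earlier samples, and those of 5043, 9583 and 9584 not. Within the 11, 9 members were higher (13.9% of all genes were, and 12.4% were lower), all but Atf4 and Ppp1r15a of the 11 named above. A test of the difference between the 3 and the 11 called 1 of 18193 genes (0.0055%) and no member. The member nearest to the threshold was Ern1, which changed by -0.26 on average in the 3 lymphomas and by 0.82 in the 11 (difference -1.08, p = 0.00304 and adjusted p = 0.864, limma).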

How the data were processed

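The authors deposited log2 expression values for 45101 probe sets on each of 28 arrays. Per the submitters' processing notes they were made with RMA, which corrects background, normalizes between arrays and summarises probes, and Partek 6.5. The genome build behind the probe annotation is not given in the sources used here. With the platform annotation, dated 2016, 34945 probe sets had 1 gene, 932 several and 9160 none, and 64 were controls; 34741 of the first kind were found in RefSeq. The brightest probe set per gene over all arrays left 18193 genes, of which 9010 had more than 1. Array medians lay between 4.71 and 4.80. The 14 lymphomas, each with 1 pair of arrays, set how precise each change can be.

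The paired change of every gene was fitted by lmFit and eBayes from limma 3.58.1 (R 4.3.3), lymphoma being a block, with Benjamini-Hochberg adjustment over all genes and a threshold of 0.05. On simulated data with 200 changed genes of 18193 this fit recovered 67.6% of log2 changes of 0.5, 94.8% of 1 and 98.6% of 2, with 5 false among 179 calls. The changed genes were drawn from all genes, whose median SD of the change was 0.32, against 0.54 over the members. Recovery among the members was not measured. The labels give the lymphoma of each array. Deviations from the group means correlated within lymphomas at r from 0.27 to 0.61, against a median of -0.08 between lymphomas. For 12 of the 14 ADR arrays the best-matching untreated array was that of the same lymphoma.

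Members and lists were chosen with earlier results of these data known. Every member is named; lowest, median and highest levels are given for members past the threshold and the 2 most changed of each role, and up to 3 changed genes per other list. Fuller values of other members, the correlation cutoff and genes outside this rule were chosen after values were seen. The alternatives were no block, a random block, other probe sets, centring, quantile normalization, a minimum mean of 6, trend and robust moderation, lymphomas left out and marker covariates. Some listed genes are not reported here. Promoters are RefSeq's, GRCm38.p6.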

Additional observations from a re-analysis of the deposited data

How the results depend on the processing

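Over all genes, 2790 were higher and 2435 lower. These counts were 1051 and 923 with the fibroblast covariate and 81 and 83 with the macrophage covariate. The count of higher members, 11 in the main fit, was 7 with no replicate block (Atf4, Edem1, Ern1 and Ppp1r15a lost, 10.6% of all genes higher), 2 with the fibroblast and 1 with the macrophage covariate, and 9 to 11 when 1 lymphoma was left out. The count of lower members was 0, but 1 (Asns) without 403 and 5560 or with the fibroblast covariate, and 0 to 2 with 1 lymphoma left out (Dnajc3 and Sec61b without 2949, Asns without 403). The random block, centring, quantile normalization, the minimum mean and trend with robust moderation each kept all 11. The probe set of largest variance lost Atf4 and Derl1, and the mean of all probe sets lost Atf4 and Ern1. The median change of the 7 ATF4-CHOP genes, 0.47, was -0.202 with the fibroblast covariate. The cause was not tested.

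Some members that missed the threshold in the main fit changed sign. With the probe set of largest variance Hsp90b1 was -0.14, Dnajc3 0.18, Hyou1 -0.35 and Sel1l -0.39, and with the mean of probe sets Hyou1 was -0.0590, Sel1l -0.0656 and Syvn1 0.0348. Quantile normalization put Syvn1 at 0.00262, and leaving out 1570 put Atf6 at -0.000505. Without 403 and 5560, Sdf2l1 was 0.11, Manf 0.0364 and Syvn1 0.0818. With the fibroblast covariate Pdia6 was 0.00261, Sdf2l1 0.43, Manf 0.20, Edem2 -0.10, Syvn1 0.47, Derl3 0.0354, Trib3 -0.20, Chac1 -0.46 and Sec61b 0.0234, and the called Ddit3 and Ppp1r15a were -0.0342 and -0.301. With the macrophage covariate, fitted outside the range of the data, Dnajc3 was 0.21, Manf 0.0952, Edem2 -0.12, Syvn1 0.39 and Atf6 -0.0804. Leaving out 1 lymphoma, the ranges that crossed 0 were -0.0598 to 0.214 for Atf6, -0.104 to 0.0378 for Manf, -0.164 to 0.0510 for Sdf2l1, -0.0831 to 0.0438 for Syvn1 and -0.0706 to 0.254 for Trib3. Creld2 passed the threshold without 3769, Canx without 7050 and Edem2 without 9584. Of all comparisons of a result with an alternative, 961 kept direction and side of the threshold, 45 changed sign, 40 lost and 8 gained the threshold with the same sign, and 12 were counts or medians that moved.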
